A study of Rattus norvegicus with 24 samples.

Results

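The 8 genes described here encode the opioid peptides and their receptors: the precursor genes Penk, Pdyn, Pnoc and Pomc, and the receptor genes Oprm1, Oprd1, Oprk1 and Oprl1. They were taken by gene name from a table of mRNA read counts of 35032 rat genes, and all 8 were found there, each as 1 row. Tissue was dissected from 2 brain regions, the hypothalamic paraventricular nucleus (PVN) and the amygdala's central nucleus (CEA), of young adult male Sprague-Dawley rats, as 24 libraries in 8 groups of 3. Normal control rats (NC) were restrained as the others were but not operated on, and the hepatectomy group (HT) had part of the left liver lobe removed under isoflurane. The EA group had the same operation with electroacupuncture at the Zusanli and Sanyinjiao points before and right after it, and the sham group (SEA) had the operation and the needles with no current. Tissue was taken a day after the last stimulation, so every operated group carries surgery and anaesthesia together. The study counted 12 rats. Its methods say that the brain samples did not come from 1 animal but shared a batch, and give no match of single PVN and CEA libraries to rats.

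Opioid peptides are cut from larger precursor proteins in neurons and act on receptors that couple to inhibitory G proteins, which lower cyclic AMP and damp firing and transmitter release. Penk gives the enkephalins, Pdyn the dynorphins, Pnoc nociceptin, and Pomc β-endorphin together with corticotropin and the melanocortins. Oprm1 encodes the μ receptor, through which morphine acts, Oprd1 the δ receptor, Oprk1 the κ receptor and Oprl1 the nociceptin receptor. In the PVN, dynorphin is made beside vasopressin in magnocellular neurons. Neurons of the CEA and of the neighbouring striatum are known for enkephalin and dynorphin, while the brain's Pomc neurons lie mainly in the arcuate nucleus. Acupuncture analgesia has long been studied through these peptides.

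The DNA around the start of transcription is shown for genes whose mRNA levels are compared below, so that the sequences can be read beside the values. Windows of 300 bases over annotated starts were held for 4 of the 8 genes in RefSeq on the assembly GRCr8 (5 windows, 2 of them for Oprm1). Printed 5′ to 3′ on the strand of the gene, they are Pdyn at chr3:137366454-137366753 (minus strand), Pomc at chr6:32659103-32659402 (plus strand), Oprd1 at chr5:149624950-149625249 (minus strand) and Oprm1, first start, at chr1:45585733-45586032 (plus strand). Capitals mark the TATA box letters TATAAA, the E box letters CACGTG and the GC box letters GGGCGG on either strand. A GC box on the opposite strand reads as its reverse complement.
Pdyn: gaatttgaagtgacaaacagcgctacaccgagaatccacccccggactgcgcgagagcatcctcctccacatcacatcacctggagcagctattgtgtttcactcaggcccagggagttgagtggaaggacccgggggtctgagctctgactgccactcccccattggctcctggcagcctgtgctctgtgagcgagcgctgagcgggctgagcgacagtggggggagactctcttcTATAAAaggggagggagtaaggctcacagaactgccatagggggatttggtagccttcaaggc
Pomc: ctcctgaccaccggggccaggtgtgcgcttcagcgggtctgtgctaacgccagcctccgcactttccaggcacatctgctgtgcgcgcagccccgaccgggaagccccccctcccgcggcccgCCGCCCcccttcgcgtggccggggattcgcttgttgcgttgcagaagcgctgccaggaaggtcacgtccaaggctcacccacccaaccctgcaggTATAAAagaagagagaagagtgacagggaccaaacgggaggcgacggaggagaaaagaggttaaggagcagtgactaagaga
Oprd1: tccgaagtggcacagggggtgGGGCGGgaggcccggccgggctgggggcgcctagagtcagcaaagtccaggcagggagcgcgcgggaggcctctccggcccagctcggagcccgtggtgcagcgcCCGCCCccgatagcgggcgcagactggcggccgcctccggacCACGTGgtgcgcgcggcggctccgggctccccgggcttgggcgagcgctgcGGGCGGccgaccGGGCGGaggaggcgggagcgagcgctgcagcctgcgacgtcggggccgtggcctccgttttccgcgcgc
Oprm1: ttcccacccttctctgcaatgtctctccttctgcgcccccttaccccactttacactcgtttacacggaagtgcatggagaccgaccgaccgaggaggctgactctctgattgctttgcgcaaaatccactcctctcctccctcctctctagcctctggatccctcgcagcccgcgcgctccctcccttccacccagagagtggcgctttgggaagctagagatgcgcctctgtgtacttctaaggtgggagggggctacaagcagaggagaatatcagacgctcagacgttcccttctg
Pdyn and Pomc, both peptide genes, hold TATAAA, at -13 and -32 from the annotated start. That motif stood in 14.2% of the 33469 rat windows of this length. The Oprd1 window is the richest of the 4 in G and C, at 79%, and holds GGGCGG at 4 places and CACGTG at -82. Among all windows 33.1% held GGGCGG and 6.42% CACGTG. The Oprm1 window, at 57.7% G and C, held none of the 3 motifs, and the Pomc window (64%) also held GGGCGG on the other strand. The letters TGACG (21.2% of windows) and TGACGTCA (1.83%) were not found in the 5 windows. A match is a description of the letters and not of a factor bound there.

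Total counts per library ran from 13152772 to 18607032, so that 1 count was worth 0.0537 to 0.0760 CPM (counts brought to a common total). Levels below are CPM scaled by TMM factors, which even out differences in composition between libraries. The labelled regions were checked against marker genes. All 12 PVN libraries exceeded all 12 CEA libraries in the summed level of 8 genes of PVN neurons (588 to 1740 against 190.1 to 422 CPM), and the median of Oxt was 564 CPM in the PVN and 58.1 CPM in the CEA. A list of 8 central amygdala genes did not separate the regions, at 481 to 701 CPM in the PVN and 312 to 838 CPM in the CEA. The CEA libraries stood apart by a list of 8 striatal genes, at 1917 to 5911 CPM against 183 to 323 CPM in the PVN, with Adora2a at 142 to 523 CPM. Of 3 lateral hypothalamic genes, the PVN libraries held Hcrt at 140.4 to 298 CPM and Lhx9 at 1.08 to 6.17 CPM, and Pmch was at 0 in all 24 libraries. Npy was at or near 0 in both regions (at most 0.420 CPM). Some libraries stood apart within their group. The mean log2 CPM of long genes (from 4059 bases) minus that of short genes (up to 1329 bases), each gene centred by region, was taken as the length contrast of a library. It was -0.23 and -0.25 in PVN NC replicates 1 and 3 and -0.48 in CEA HT replicate 2, and ran from -0.04 to 0.20 in the other 21 libraries. Choroid plexus markers summed to 1054, 374 and 1784 CPM in CEA NC replicate 2, EA replicate 1 and SEA replicate 2, and to at most 25.3 CPM in the other 21 libraries. CEA EA replicate 2 had 3.80% mitochondrial counts against 10.1% to 14.4% in the other CEA libraries.

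Penk (ENSRNOG00000008943, chromosome 5, 17056419 to 17061837, minus strand) was the most abundant of the 8 genes in both regions. In the PVN it measured 260.3, 159 and 235 CPM in NC, 152, 167 and 172 in HT, 192, 159 and 169.6 in EA, and 163, 153 and 179 in SEA. CEA libraries measured 1161, 683 and 768 CPM in NC, 1046, 1143 and 753 in HT, 716, 474 and 704 in EA, and 662, 957 and 343 in SEA. Every CEA library exceeded every PVN library, and in the PVN the 2 highest values were those of NC replicates 1 and 3. Pdyn (ENSRNOG00000026036, chromosome 3, 122194329 to 122206671, minus strand) was nearly flat in the PVN, where it measured 134, 97.0 and 94.1 CPM in NC, 98.7, 88.6 and 93.0 in HT, 114, 101 and 103 in EA, and 97.6, 98.6 and 98.8 in SEA. Its CEA levels were 247, 123 and 132 CPM in NC, 196, 185 and 127 in HT, 164, 96.7 and 152 in EA, and 194, 191 and 83.9 in SEA. The CEA libraries spread 2.94-fold and the PVN libraries 1.51-fold, and the ranges of the regions overlapped.

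Pnoc (ENSRNOG00000014231, chromosome 15, 48805228 to 48833285, minus strand) was higher in the PVN, at 27.5, 23.0 and 32.7 CPM in NC, 21.8, 24.9 and 17.3 in HT, 17.5, 24.5 and 21.1 in EA, and 20.7, 21.3 and 23.7 in SEA. Its CEA levels were 10.7, 7.34 and 6.96 CPM in NC, 3.33, 18.9 and 4.14 in HT, 10.2, 9.96 and 9.58 in EA, and 13.1, 8.03 and 10.9 in SEA. The 1 CEA library that reached into the PVN range was HT replicate 2, which also had the lowest length contrast. Without that library the CEA values ended at 13.1 CPM and the ranges of the regions did not meet. Pomc (ENSRNOG00000012686, chromosome 6, 28382962 to 28388967, plus strand) was at 44.7, 64.9 and 59.4 CPM in NC, 34.2, 36.0 and 50.5 in HT, 44.4, 50.6 and 33.1 in EA, and 49.1, 13.5 and 28.4 in SEA in the PVN. In the CEA it was at 2.58, 4.67 and 2.32 CPM in NC, 3.13, 5.38 and 4.93 in HT, 3.89, 2.47 and 5.27 in EA, and 3.69, 4.96 and 4.02 in SEA. The regions did not overlap, and the lowest PVN value, in SEA replicate 2, was 4.82-fold below the highest one, in NC replicate 2.

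Oprm1 (ENSRNOG00000018191, chromosome 1, 43454803 to 43704948, plus strand) was the receptor gene that varied most between libraries. In the PVN it measured 1.26, 12.4 and 3.15 CPM in NC, 19.4, 13.7 and 8.23 in HT, 8.0, 15.9 and 13.9 in EA, and 15.6, 15.3 and 12.6 in SEA. These came from 20, 226 and 57 counts in NC, so the low values were counted and not missing. NC replicates 1 and 3 lay below all the other PVN libraries and NC replicate 2 lay among the operated rats. In the CEA it measured 4.56, 11.2 and 10.9 CPM in NC, 4.11, 1.79 and 7.99 in HT, 5.97, 9.89 and 4.76 in EA, and 6.86, 5.90 and 9.54 in SEA, with the lowest value in the library of lowest length contrast. Oprd1 (ENSRNOG00000010531, chromosome 5, 150288126 to 150323063, minus strand) was low in the PVN, at 2.40, 2.47 and 1.55 CPM in NC, 1.86, 1.93 and 2.09 in HT, 1.59, 2.53 and 1.81 in EA, and 1.92, 1.49 and 2.42 in SEA. CEA libraries measured 6.66, 3.67 and 7.16 CPM in NC, 6.98, 3.07 and 4.45 in HT, 3.60, 3.41 and 3.74 in EA, and 6.4, 6.52 and 2.99 in SEA. The regions did not overlap, and CEA EA was the tightest of the CEA groups.

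Oprk1 (ENSRNOG00000007647, chromosome 5, 13744658 to 13760305, minus strand) measured 9.04, 12.6 and 7.57 CPM in NC, 14.5, 16.3 and 14 in HT, 16.8, 14.9 and 15.9 in EA, and 16.3, 13.8 and 16.0 in SEA in the PVN. In the CEA it measured 8.34, 3.61 and 6.36 CPM in NC, 7.05, 4.10 and 4.69 in HT, 8.93, 6.22 and 6.24 in EA, and 8.90, 10.9 and 3.70 in SEA. The 3 PVN NC libraries lay below all 9 PVN libraries of operated rats, and the regions overlapped only through PVN NC. Oprl1 (ENSRNOG00000016768, chromosome 3, 177225737 to 177231663, plus strand) was the most abundant receptor gene in both regions. In the PVN it measured 46.2, 68.0 and 42.5 CPM in NC, 72.4, 63.7 and 71.8 in HT, 66.5, 74.1 and 73.6 in EA, and 75.6, 63.2 and 71.0 in SEA. In the CEA it measured 20.9, 14.6 and 15.9 CPM in NC, 12.5, 15.8 and 15.7 in HT, 20.9, 29.9 and 18.9 in EA, and 26.1, 14.8 and 19.2 in SEA. Every PVN library exceeded every CEA library, and NC replicates 1 and 3 were again the lowest of the PVN. Coordinates are those of the deposited table, whose build could not be settled from the sources used here.

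**Figure D1:**
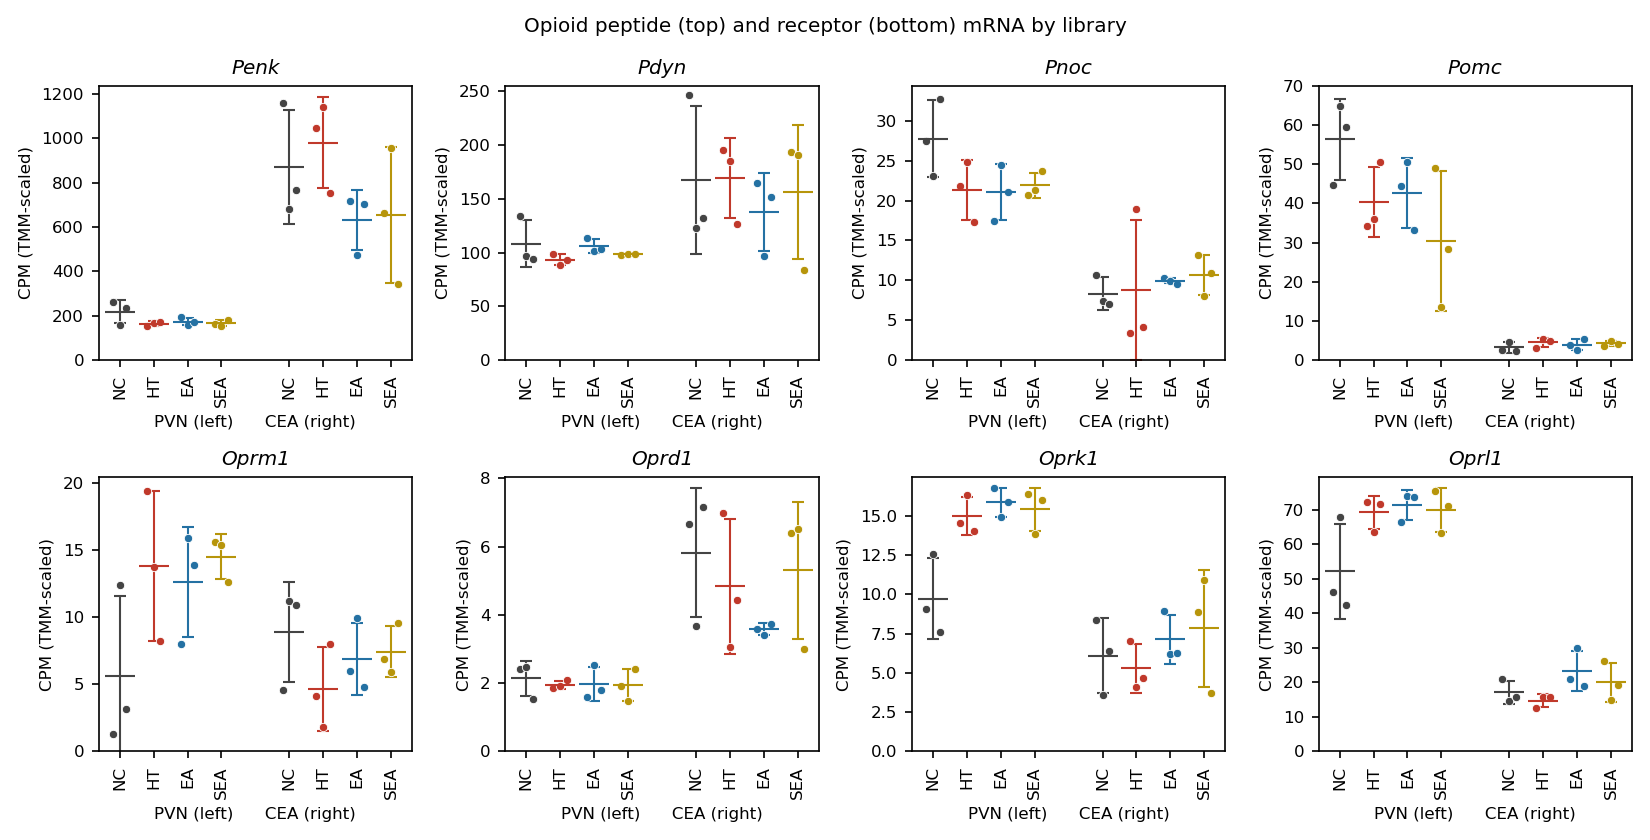
Levels of the 4 peptide genes (top) and 4 receptor genes (bottom) in TMM-scaled CPM (linear vertical axes from 0) in each library, by region and treatment; points are libraries, horizontal lines are group means and bars are the SD over 3 libraries, cut off at 0 where they would pass below it. Penk and Oprd1 are high in the CEA and Pomc, Pnoc and Oprl1 in the PVN, and 2 of the 3 PVN NC libraries lie below the rest of the PVN for Oprm1 and Oprl1.

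To compare genes with each other, CPM was divided by the counted length of each gene in kilobases. By the median of CPM per kilobase over the 12 PVN libraries the order was Penk (99.0), Pdyn (40.4), Pomc (39.9), Oprl1 (22.8), Pnoc (11.1), Oprk1 (5.70), Oprm1 (2.49) and Oprd1 (1.36). Only the steps from Penk to Pdyn and from Pnoc to Oprk1 were free of overlap between the 12 values of neighbours. In the CEA the order by median CPM per kilobase was Penk (432), Pdyn (64.8), Oprl1 (5.73), Pnoc (4.85), Pomc (3.54), Oprd1 (2.89), Oprk1 (2.44) and Oprm1 (1.21). There, Penk and Pdyn each stood clear of the gene below, and the 6 other genes overlapped with their neighbours. The precursor genes of enkephalin and dynorphin thus led in both regions, Pomc ranked above every receptor in the PVN by its median, and Oprl1 led the receptors. The CEA held the μ receptor gene at the lowest median of the family on this scale.

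The regions were compared first in unoperated rats. In NC, 2 members were higher in the CEA, Penk and Oprd1, and 3 were higher in the PVN, Pomc, Pnoc and Oprl1, by edgeR's quasi-likelihood test with Benjamini-Hochberg adjustment over all genes at 0.05. Of the 16748 genes tested, 12.7% were called with the CEA higher and 13.7% with the PVN higher. Penk was 3.99-fold higher in the CEA (log2 fold change 2.0, SE 0.26, edgeR adjusted p = 0.00236) and Oprd1 2.71-fold (log2 1.44, SE 0.33, edgeR adjusted p = 0.0191). Pomc was 17.6-fold higher in the PVN (log2 -4.14, SE 0.29, edgeR adjusted p = 0.000389), Pnoc 3.34-fold (log2 -1.74, SE 0.22, edgeR adjusted p = 0.00210) and Oprl1 3.05-fold (log2 -1.61, SE 0.22, edgeR adjusted p = 0.00294). Pdyn (log2 0.62, SE 0.28, edgeR adjusted p = 0.145), Oprk1 (log2 -0.68, SE 0.33, 0.172) and Oprm1 (log2 0.65, SE 0.74, 0.553) did not pass. Same-numbered NC libraries of the regions deviated together, and with the replicate number as a block Pdyn passed as well (log2 0.57, edgeR adjusted p = 0.0318). The Oprd1 call was lost without PVN NC replicate 3 (edgeR adjusted p = 0.0640) or CEA NC replicate 3 (0.0701), and with the length contrast as a covariate (log2 1.11, edgeR adjusted p = 0.224). Oprm1 passed without PVN NC replicate 2 (log2 1.99, edgeR adjusted p = 0.0360). Of 17041 genes in that fit, 3136 were called toward the CEA and 3016 toward the PVN. With every NC library kept these counts were 2120 and 2294 of 16748, so the gain in calls was not particular to Oprm1.

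Over all 4 treatments, with each group weighted equally, all 8 members passed: 3 were higher in the CEA, where 27.1% of 17768 genes were, and 5 in the PVN, where 29.6% were. Penk was 4.31-fold higher in the CEA (log2 2.11, SE 0.14, edgeR adjusted p = 1.46e-10), Oprd1 2.40-fold (log2 1.26, SE 0.17) and Pdyn 1.55-fold (log2 0.63, SE 0.14, edgeR adjusted p = 0.000650). Pomc was 10.5-fold higher in the PVN (log2 -3.40, SE 0.19, edgeR adjusted p = 1.25e-11), Oprl1 3.52-fold (log2 -1.82, SE 0.10), Pnoc 2.44-fold (log2 -1.28, SE 0.20) and Oprk1 2.11-fold (log2 -1.07, SE 0.16). Oprm1 was at the edge, 1.61-fold higher in the PVN (log2 -0.69, SE 0.29, edgeR adjusted p = 0.0490). Its direction in NC alone was the opposite. The call was lost in 16 of the 24 fits that each left out 1 library (edgeR adjusted p 0.0117 to 0.218 over the 24), and the log2 value moved most without PVN NC replicate 2 (-0.36, edgeR adjusted p = 0.218). It was also lost with other size factors (edgeR adjusted p = 0.0566), with no filter on low counts (0.0571) or with the replicate block (0.0519). The median log2 fold change of the members was -0.88 and that of all genes tested -0.01. In bulk tissue, fewer cells of a type and less RNA per cell cannot be told apart.

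**Figure D2:**
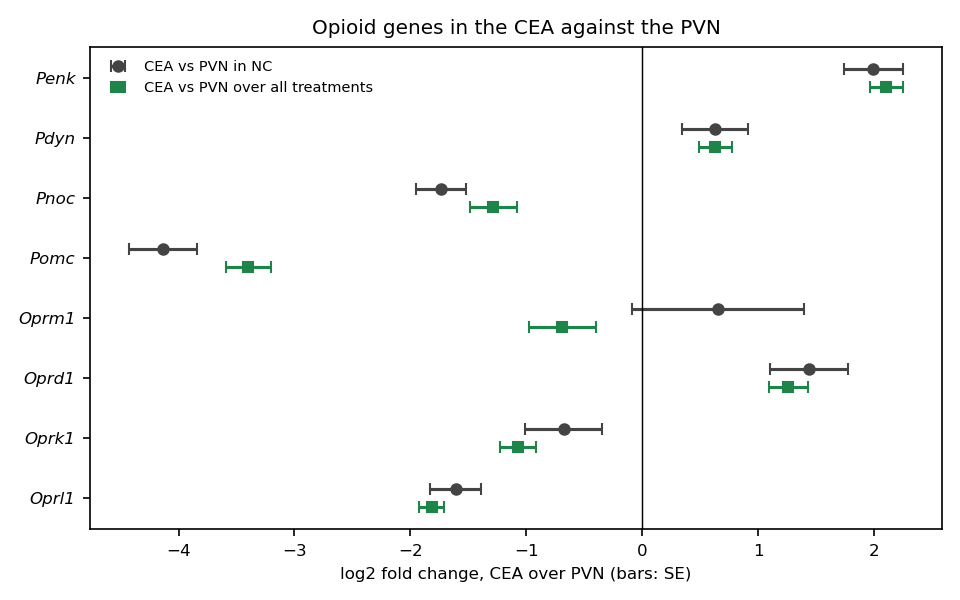
Log2 fold change of each gene in the CEA over the PVN (horizontal axis, values above 0 are higher in the CEA; bars are SE), from NC libraries alone (circles, 3 against 3) and over all treatments (squares, 12 against 12). Pomc lies farthest to the PVN side at -4.14 and -3.40, Penk farthest to the CEA side, and Oprm1 is on opposite sides in the 2 comparisons.

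Beside Penk and Pdyn, the levels of striatal markers moved between CEA libraries. Over the 12 CEA libraries, log2 CPM of Penk and the mean log2 CPM of the 8 striatal genes correlated with Pearson r = 0.88 (Spearman rho = 0.83; permutation p adjusted over 8 relations 0.000720 and 0.00268). The r was 0.80 without the 2 libraries farthest from the median of the list, HT replicate 1 and SEA replicate 3, and 0.90 within treatments. Pdyn correlated with the same list at r = 0.87 (rho = 0.85; adjusted permutation p 0.000907 and 0.00256), with 0.80 without those 2 libraries and 0.86 within treatments. Penk and Pdyn were also tied to each other in the CEA (r = 0.88, rho = 0.72; permutation p adjusted over 56 pairs of members 0.00532 and 0.162; 0.75 without NC replicate 1 and SEA replicate 3). Pnoc did not pass with the striatal list (r = -0.35, rho = -0.25; adjusted permutation p 0.269 and 0.429). Oprm1 ran against it by rank and not by r (rho = -0.62, r = -0.45; adjusted permutation p 0.0467 and 0.163), and r was -0.31 without those 2 libraries. Markers of thalamus and habenula summed to 67.9 to 537 CPM in the CEA, and their relation to Oprm1 there was not tested. In the PVN, Penk and the striatal list gave r = 0.67 (rho = 0.88; adjusted permutation p 0.0257 and 0.00120; 0.58 without HT replicate 1 and SEA replicate 2). The part of unequal dissection in these levels was not tested.

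Pomc in the PVN moved with markers of the arcuate nucleus. Over the 12 PVN libraries its log2 CPM and the mean of 8 arcuate genes correlated with r = 0.89 (rho = 0.80; adjusted permutation p 0.00212 and 0.00442), with 0.85 without NC replicate 1 and SEA replicate 2 and 0.81 within treatments. The list summed to 136 to 300.1 CPM in the PVN and 20.8 to 55.7 CPM in the CEA. Its members include Agrp, made in arcuate feeding neurons, at 0.841 to 13.5 CPM in the PVN, and Npy, at 0 to 0.239 CPM. A list of 7 pituitary genes summed to 6.53 to 17.0 CPM in the PVN and 3.12 to 7.71 CPM in the CEA. Within it Prl was at 0 in every library and Gh1 reached 0.120 CPM, while in the PVN Lhb was at 3.88 to 9.42 CPM, Tbx19, a factor of corticotroph cells, at 1.36 to 6.20 CPM and Cga at 0 to 6.27 CPM. Its lowest PVN sum was in SEA replicate 2, which also had the lowest Pomc of the PVN. Pdyn and the 8 genes of PVN neurons gave r = 0.55 (rho = 0.55; adjusted permutation p 0.119 and 0.0802), which became 0.91 without NC replicate 3 and HT replicate 3. Oprm1 moved with 7 measured markers of thalamus and habenula (r = 0.89, rho = 0.92; adjusted permutation p 8e-05 and 0.000400; 0.69 without NC replicate 1 and EA replicate 2, and 0.79 within treatments). In that list Slc17a6, the vesicular glutamate transporter of thalamic and hypothalamic neurons, was at 257 to 401 CPM and Pou4f1, a habenular factor, at most 0.158 CPM.

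**Figure D3:**
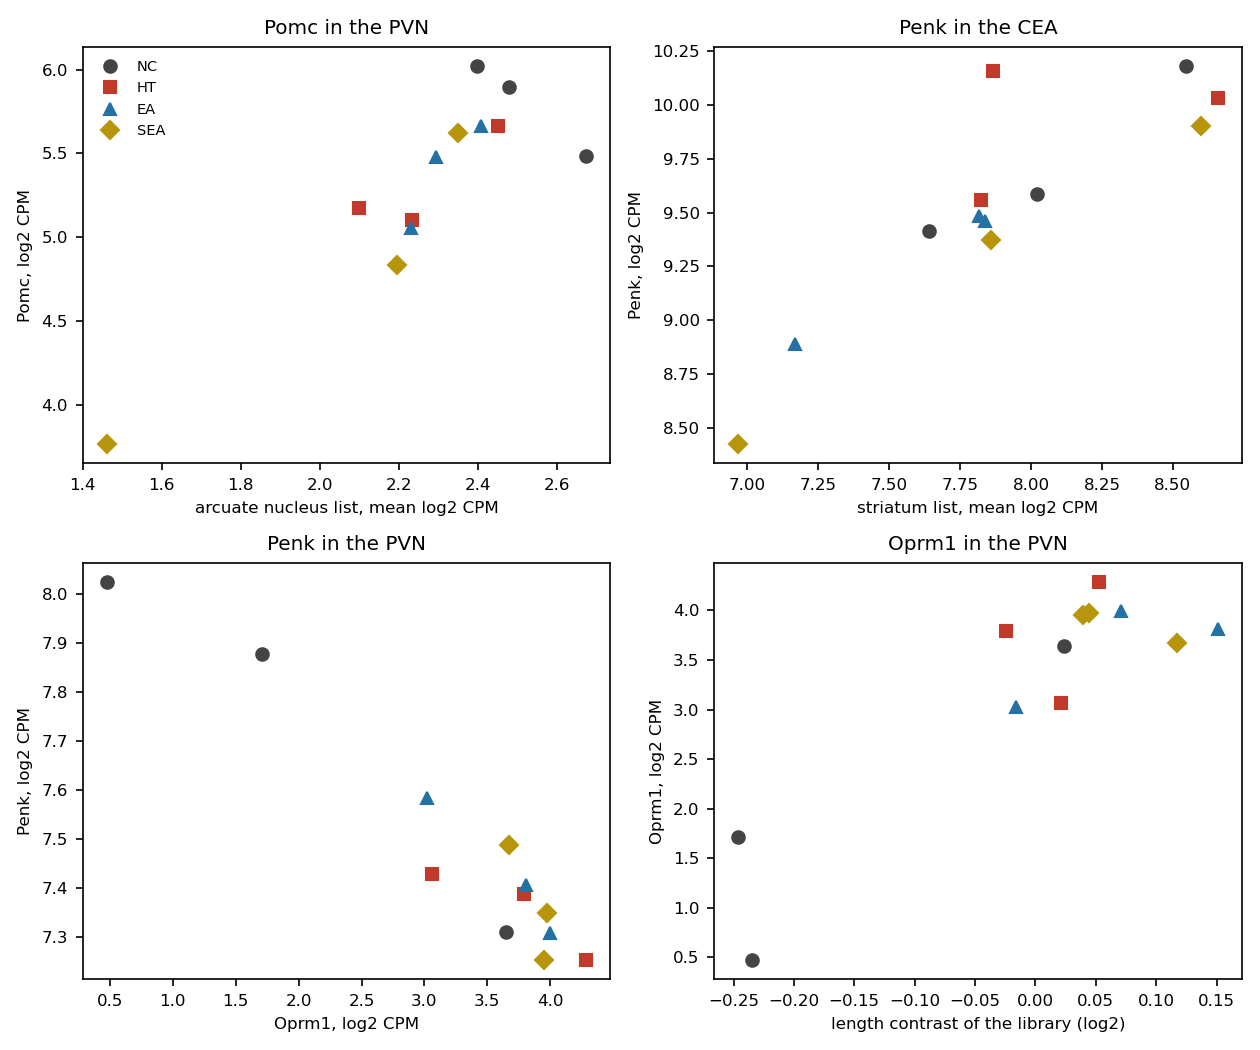
Each point is 1 library, coloured by treatment, with both axes in log2 units (12 libraries per panel): Pomc against the arcuate list in the PVN, Penk against the striatal list in the CEA, Penk against Oprm1 in the PVN, and Oprm1 against the length contrast in the PVN. Pomc and Penk rise along their lists, and in the lower panels PVN NC replicates 1 and 3 lie away from the other 10 libraries.

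The effect of the operation was read first in the PVN, by setting HT beside NC. Among the 8 members 0 passed the adjusted threshold, with edgeR or with DESeq2, where 0.012% of 16727 genes passed with edgeR. The looser rule of an unadjusted edgeR p under 0.05 took 3 of 8 members and 11% of all genes. Across the alternatives that count ran from 0 without NC replicate 3 to 5 without NC replicate 2 or with no filter on low counts, and with all 8 groups in 1 fit Oprm1 was the 1 member it took. Of all genes, the rule took 292 higher and 490 lower of 16964 without NC replicate 3. Without NC replicate 2 it took 3221 and 2771 of 16939. It took 1465 and 1072 of 24748 with no filter, and 1480 and 812 of 17768 with all 8 groups in 1 fit. Oprk1 was 1.53-fold higher in HT (15 ± 1.20 against 9.72 ± 2.56 CPM, SD, n = 3; log2 0.62, SE 0.20, edgeR adjusted p = 0.418) without overlap between the groups. Penk was 1.33-fold lower (164 ± 10.3 against 218 ± 52.9 CPM; log2 -0.41, SE 0.17, edgeR adjusted p = 0.418), and Pomc 1.40-fold lower (40.3 ± 8.95 against 56.3 ± 10.4 CPM; log2 -0.49, SE 0.19, edgeR adjusted p = 0.418), both with overlap. Beside Pomc, the summed pituitary list was at 7.06 to 9.25 CPM in HT and 12.2 to 16.5 CPM in NC, and the list of PVN neurons at 588 to 1171 CPM and 1221 to 1740 CPM, both without overlap. The mean log2 CPM of the pituitary list overlapped (-1.26 to -0.77 in HT and -1.11 to -0.07 in NC). The arcuate list was at 148 to 198 CPM in HT and 187 to 300.1 CPM in NC, with overlap, and the part of these markers in the values was not tested. Oprm1 was 2.43-fold higher in HT on average (13.8 ± 5.58 against 5.6 ± 5.95 CPM; log2 1.28, SE 0.71, edgeR adjusted p = 0.438), within the spread between libraries. Beside Oprm1, the mean log2 CPM of the thalamus and habenula list was 3.10 to 3.47 in HT and 2.34 to 3.08 in NC, without overlap, and its sums overlapped (423 to 556 and 309 to 453 CPM). A list of 6 genes of basolateral amygdala and cortex summed to 23.0 to 25.3 CPM in HT and 6.39 to 20.7 CPM in NC, without overlap. Intercalated cell markers summed to 60.3 to 64.0 CPM in HT and 44.8 to 56.3 CPM in NC and choroid plexus markers to 10.1 to 11.7 and 13.5 to 17.4 CPM, also without overlap. The mean log2 CPM of the choroid plexus list overlapped (0.35 to 0.87 in HT and 0.70 to 1.13 in NC). The part of these lists was not tested. The other 4 members lay between -0.38 and 0.40 on the log2 scale, the median of the 8 was -0.17 and that of all genes -0.01.

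These PVN values turned on single NC libraries. Without PVN NC replicate 2, 4 members passed the edgeR adjusted threshold in HT against NC, where 20.2% of 16939 genes did. They were Oprm1 (log2 2.62, SE 0.48, adjusted p = 0.00998), Oprk1 (0.84, adjusted p = 0.00973) and Oprl1 (0.64, adjusted p = 0.00397), higher in HT, and Penk (-0.60, adjusted p = 0.00374), lower, named after their values were seen. Without replicate 1 or 3, 0 passed, and the log2 change of Oprm1 was 0.82 and 0.99 (edgeR adjusted p 0.801 and 0.701). NC replicates 1 and 3, which remain when replicate 2 is left out, have the length contrasts of -0.23 and -0.25 given above. With the length contrast as a covariate, a fit chosen after the data were seen, the edgeR log2 changes were 0.26 (SE 0.49) for Oprm1, 0.31 (SE 0.20) for Oprk1, 0.03 (SE 0.09) for Oprl1, 0.01 (SE 0.10) for Penk and -0.67 (SE 0.23) for Pomc, and 0 members passed. Over all 12 PVN libraries, Pearson r with the length contrast was 0.88 for Oprm1, 0.94 for Oprl1, 0.86 for Oprk1 and -0.85 for Penk (permutation p adjusted over 16 relations 0.0223, 0.00672, 0.0272 and 0.0272), and within treatments it was 0.77, 0.88, 0.64 and -0.78. Spearman rho was 0.72, 0.78, 0.38 and -0.52 (adjusted permutation p 0.0875, 0.0664, 0.482 and 0.362). Over the 10 PVN libraries other than NC replicates 1 and 3, r was 0.36 for Oprm1, 0.59 for Oprl1, 0.07 for Oprk1 and -0.08 for Penk, so that the relations rested largely on those 2 libraries. Oprm1 and Penk ran against each other over the 12 PVN libraries (r = -0.97, rho = -0.88; permutation p adjusted over 56 pairs 0.00112 and 0.0129), and r was -0.79 without those 2 libraries.

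**Figure D4:**
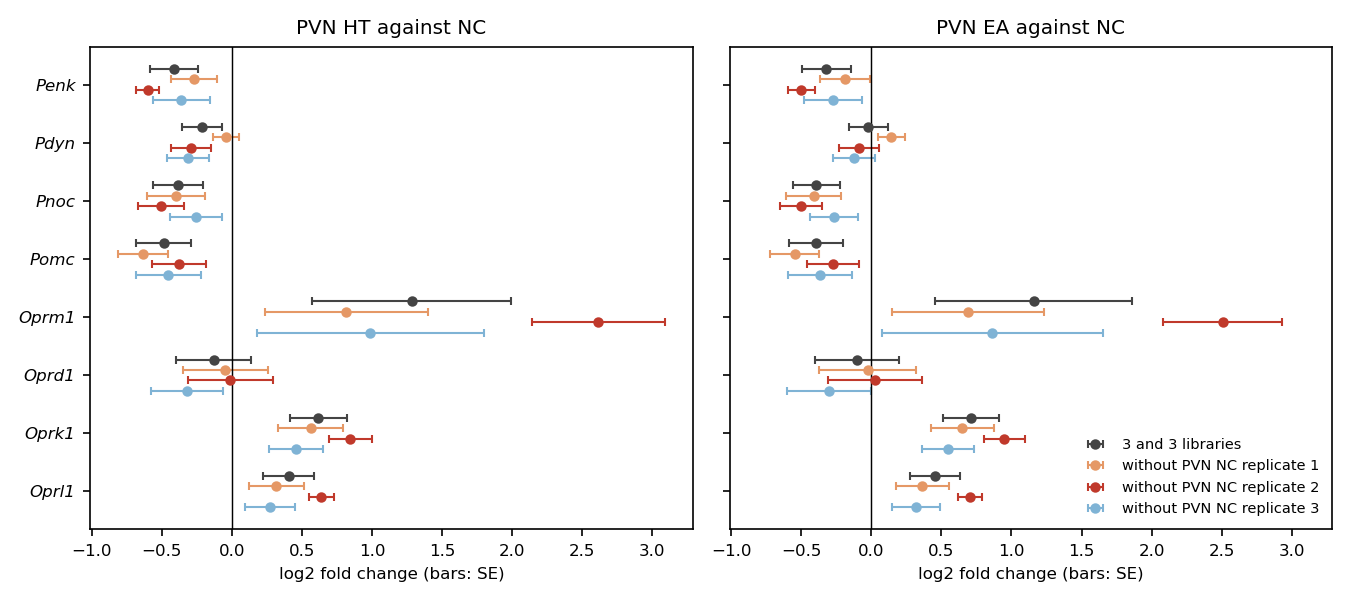
Log2 fold changes (horizontal axes; bars are SE) of the 8 genes in the PVN for HT against NC (left) and EA against NC (right), with all 3 NC libraries and with each left out in turn. For Oprm1 the value without NC replicate 2 is 2.62 in HT and 2.51 in EA, above those of the other fits, while the values of Oprd1 lie around 0.

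Electroacupuncture was read from EA against HT, which shares the HT libraries with the comparison above, and from EA against SEA and SEA against HT. In PVN EA against HT, 0 of 8 members passed the adjusted threshold by edgeR or DESeq2 (0.0961% of 16641 genes by edgeR), and 1 had an unadjusted p under 0.05 (5.67% of genes). This was Pdyn, 1.14-fold higher in EA without overlap (106 ± 6.62 against 93.4 ± 5.08 CPM, SD, n = 3; log2 0.18, SE 0.07, edgeR adjusted p = 0.783). Beside Pdyn, the mean log2 CPM of the list of PVN neurons was 5.76 to 5.86 in EA and 5.09 to 5.64 in HT, without overlap, while the sums of that list overlapped (1160 to 1402 and 588 to 1171 CPM). The pituitary list summed to 9.95 to 17.0 CPM in EA and 7.06 to 9.25 CPM in HT and the choroid plexus list to 13.9 to 16.3 and 10.1 to 11.7 CPM, both without overlap. The mean log2 CPM of the pituitary list overlapped (-0.97 to 0.03 in EA and -1.26 to -0.77 in HT). The part of these markers in the Pdyn values was not tested. Oprm1 did not differ beyond the spread (12.6 ± 4.09 against 13.8 ± 5.58 CPM; log2 -0.12, SE 0.32, edgeR adjusted p = 0.993), and the sign turned without HT replicate 1 or EA replicate 1 (log2 0.20 and 0.10). The other 6 members lay between -0.01 and 0.09 in log2 fold change. In SEA against HT and in EA against SEA, 0 members passed at the adjusted threshold by either tool (0% and 0% of 16634 and 16606 genes by edgeR), and 0 had an unadjusted p under 0.05 by edgeR (4.38% and 5.21% of genes). The values farthest from 0 there were those of Pomc, at -0.41 (SE 0.38) and 0.49 (SE 0.36), with SEA replicate 2 at 13.5 CPM. Without that library they were -0.06 and 0.14, and without SEA replicate 1 they were -0.95 and 1.03 (edgeR adjusted p = 0.999 and 0.990). SEA replicate 2 also had the lowest arcuate sum of the PVN, 136 CPM, and that list was at 185 to 193 CPM in EA and 136 to 174 CPM in SEA, without overlap. The mean log2 CPM of the list overlapped (2.23 to 2.41 in EA and 1.46 to 2.35 in SEA). Its part in the Pomc values was not tested.

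EA against NC in the PVN, which shares libraries with each of these, gave 0 adjusted calls among the members by edgeR or DESeq2 (0.0119% of 16793 genes by edgeR), and 2 had an unadjusted p under 0.05 (10.1% of genes). Oprk1 was 1.64-fold higher in EA without overlap (15.8 ± 0.923 against 9.72 ± 2.56 CPM, SD, n = 3; log2 0.71, SE 0.20, edgeR adjusted p = 0.461). Oprl1 was 1.37-fold higher (71.4 ± 4.23 against 52.2 ± 13.8 CPM; log2 0.46, SE 0.18, edgeR adjusted p = 0.461). Beside them, the mean log2 CPM of the thalamus and habenula list was 3.10 to 3.54 in EA and 2.34 to 3.08 in NC and that of the central amygdala list 5.21 to 5.30 and 4.97 to 5.18. The intercalated cell list summed to 56.6 to 66.1 CPM in EA and 44.8 to 56.3 CPM in NC. On these measures the 3 lists did not overlap between the groups. The sums of the thalamus and habenula list overlapped (403 to 482 CPM in EA and 309 to 453 CPM in NC). So did those of the central amygdala list (542 to 654 and 536 to 701 CPM). The part of these lists in the values was not tested. Oprm1 (log2 1.16, SE 0.70, edgeR adjusted p = 0.484) and Penk (log2 -0.32, SE 0.18, edgeR adjusted p = 0.468) did not pass. Without PVN NC replicate 2, Oprm1 (log2 2.51), Oprk1 (0.95), Oprl1 (0.70) and Penk (-0.50) passed at edgeR adjusted p-values of 0.00711, 0.00470, 0.00201 and 0.0126, in a fit that called 19% of 17069 genes. Without replicate 1 or 3, 0 passed, and Oprm1 was at 0.69 and 0.86 on the log2 scale. With the length contrast as a covariate 0 passed, and the log2 changes of Oprm1 and Penk turned to -0.21 and 0.16.

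In the CEA, HT against NC gave 0 members at the adjusted threshold by edgeR or DESeq2 (0% of 16413 genes by edgeR), and 0 had an unadjusted p under 0.05 by edgeR (3.75% of genes). Penk was at 981 ± 203 CPM in HT and 871 ± 255 CPM in NC (SD, n = 3), and Oprm1 at 4.63 ± 3.13 and 8.87 ± 3.74 CPM (log2 -0.92, SE 0.55, edgeR adjusted p = 0.918). With 1 library left out the log2 change of Oprm1 ran from -1.57 without HT replicate 3, the 1 such fit in which its unadjusted p was under 0.05, to -0.52 without HT replicate 2. Astrocyte markers summed to 1553 to 1689 CPM in HT and 1926 to 2523 CPM in NC, without overlap, and their part was not tested. Without HT replicate 2, where Pnoc was at 18.9 CPM, the log2 change of Pnoc went from 0.10 to -1.12 (edgeR adjusted p = 0.986). In EA against HT, 0 members passed by either tool (0% of 16479 genes by edgeR) and 2 had an unadjusted p under 0.05 (3.19% of genes). Penk was 1.57-fold lower in EA (631 ± 137 against 981 ± 203 CPM; log2 -0.65, SE 0.24, edgeR adjusted p = 0.930) and Oprl1 1.56-fold higher (23.2 ± 5.84 against 14.7 ± 1.86 CPM; log2 0.65, SE 0.22, edgeR adjusted p = 0.930), both without overlap. CEA EA replicate 2, with 3.80% mitochondrial counts, held the lowest Penk (474 CPM) and the highest Oprl1 (29.9 CPM) of these 6 libraries, and without it 0 members had an unadjusted p under 0.05 (log2 -0.48 for Penk and 0.43 for Oprl1, edgeR adjusted p = 0.999 for both). Beside Penk, the striatal list summed to 3480 to 5911 CPM in CEA HT and 2066 to 3395 CPM in CEA EA, also without overlap. The mean log2 CPM of that list overlapped (7.82 to 8.66 in HT and 7.17 to 7.84 in EA). The part of these markers in the Penk values was not tested.

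SEA against HT and EA against SEA in the CEA gave 0 members at the adjusted threshold by either tool (0% and 0% of 16393 and 16322 genes by edgeR), and 0 had an unadjusted p under 0.05 by edgeR (3.07% and 1.99% of genes). Penk was 654 ± 307 CPM in SEA, with a log2 change of -0.63 (SE 0.35) against HT and -0.03 (SE 0.35) between EA and SEA. In EA against NC, 0 members passed by either tool (0.00606% of 16505 genes by edgeR) and 1 had an unadjusted p under 0.05 (4.42% of genes). That was Oprd1, 1.60-fold lower in EA (3.58 ± 0.167 against 5.83 ± 1.89 CPM, SD, n = 3; log2 -0.68, SE 0.28, edgeR adjusted p = 0.960), with overlap. With 1 library left out its log2 change ran from -0.93 to -0.50. The pituitary list summed to 5.18 to 7.71 CPM in EA and 3.12 to 4.68 CPM in NC, without overlap. Blood markers summed to 13.3 to 27.1 and 9.68 to 13.1 CPM, also without overlap. The mean log2 CPM of each list overlapped, and the part of these markers was not tested.

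An interaction term, the CEA effect minus the PVN effect, tested each treatment effect for a difference between the regions. For HT against NC, 0 members passed by edgeR or DESeq2 (0% of 17405 genes by edgeR) and 2 had an unadjusted p under 0.05 (12.1% of genes). These were Pomc (log2 0.97, SE 0.40, edgeR adjusted p = 0.413) and Oprl1 (log2 -0.63, SE 0.27, edgeR adjusted p = 0.413). Oprm1, named after its values were seen, had the widest difference (log2 -2.22, SE 1.02, edgeR adjusted p = 0.413) and passed without PVN NC replicate 2 (log2 -3.56, edgeR adjusted p = 0.0473), in a fit that called 3.93% of 17622 genes. For EA against HT, 0 members passed by either tool (0% of 17299 genes by edgeR) and 2 had an unadjusted p under 0.05 (4.52% of genes): Penk (log2 -0.74, SE 0.26, edgeR adjusted p = 0.945) and Oprl1 (log2 0.59, SE 0.23, edgeR adjusted p = 0.945).

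The genes that make, cut and transmit opioid peptides were read as 4 lists of 48 genes, of which 47 were tested in NC between regions. In the treatment comparisons and both region differences, 0 of the 46 or 47 genes tested passed the adjusted threshold by edgeR. The most with an unadjusted p under 0.05 were 8 higher and 1 lower in PVN HT against NC, 19.1% of the 47 against 11% of all genes. Between regions in NC, 9 were higher in the CEA and 9 in the PVN, 19.1% each way against 12.7% and 13.7% of all genes. Of 7 genes for peptide processing, Pcsk1, the convertase that cuts the precursors (log2 -1.56, SE 0.36), and Pam, which amidates peptides (log2 -1.03, SE 0.13), were higher in the PVN. Among 8 genes for peptide breakdown, Mme, the enkephalin-cleaving neprilysin, was higher in the CEA (log2 1.85, SE 0.40, edgeR adjusted p = 0.0154) and Ece2 in the PVN (log2 -1.50, SE 0.24). Of 28 genes for signalling and desensitization, 8 were higher in the CEA and 5 in the PVN. They included Rgs9, which speeds the shut-off of G proteins (log2 3.46, SE 0.24) and is also in the striatal list, and Adcy5, an adenylyl cyclase (log2 2.68, SE 0.22), both higher in the CEA. Mc3r, a receptor of the melanocortins cut from the Pomc precursor, was higher in the PVN (log2 -4.40, SE 0.67, edgeR adjusted p = 0.00416). Over all treatments 15 of 47 (31.9%) were higher in the CEA and 17 (36.2%) in the PVN, near the 27.1% and 29.6% of all genes, and Pcsk1 was at -2.20 (SE 0.17) and Mme at 1.31 (SE 0.20).

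The genes whose log2 CPM followed each member most closely over the 24 libraries, after the mean of each region was taken out, are given with Pearson r as a description. Only genes with a symbol and a mean of at least 1 CPM were ranked, with the members left out. The libraries share depth and tissue composition, so no p is given. Nearest to Oprm1 were Gabrb2 (0.97), Kcnma1 (0.96) and Wipf2 (0.96), to Oprk1 Syt10 (0.95), Gria1 (0.91) and Gda (0.91), and to Oprl1 Disp2 (0.89), Timp2 (0.87) and Glra1 (0.86). Nearest to Oprd1 were Wscd2 (0.83), Fam78a (0.82) and Kremen1 (0.81). Among the peptides, Penk was followed by Ngef (0.94), Nrgn (0.94) and Lamp5 (0.93), Pdyn by Rcan1 (0.91), Pianp (0.87) and Lmo3 (0.87), and Pnoc by Podxl2 (0.86), Scg2 (0.86) and Zcchc18 (0.85). Pomc had the weakest nearest genes, Amacr (0.72), Fndc3c1 (0.70) and Crtapl1 (0.68). For Oprm1 the r with Gabrb2 was 0.97 in the PVN and 0.96 in the CEA, whereas for Pomc the r with Fndc3c1 was 0.87 in the PVN and 0.23 in the CEA.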

How the data were processed

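The deposited values were whole-number read counts per gene, which the authors made from strand-specific mRNA libraries by mapping with HISAT2 and counting with featureCounts (versions not given in the sources used here). The methods name a newer rat assembly, while the largest gene end on chromosome 1, 282724300, fits the older Rnor 6.0, so the build was left unsettled, and how multiply mapped reads were counted was not stated. Gene length was a deposited column of another unit, in bases. Counting 1 stray header line out left 35032 genes, and no pair of libraries was identical. That line exchanges the numbers of CEA EA replicates 2 and 3, and the sample titles were followed here.

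Each comparison was fitted on all genes of its own groups with edgeR 4.0.16 in R 4.3.3 (filterByExpr, TMM factors, quasi-likelihood test, two-sided, Benjamini-Hochberg adjustment, threshold 0.05). The comparison of regions over all treatments used 8 group means. Correlations used log2 CPM (prior count 2) and two-sided permutation with 100000 resamples, in Python 3.11.15. Alternatives were DESeq2 1.42.0, its size factors, no filter, all groups in 1 fit, a replicate block, each library left out, and the length contrast as a covariate, the last chosen after seeing the data. Columns of other series numbered 0. The fits were tested on simulated data.

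Same-numbered NC libraries of both regions deviated together (r 0.13 to 0.32), as did CEA NC and CEA HT (0.19 to 0.35), which differ in treatment. In every other pair of groups the lowest r was 0.0189 or less. The numbers were taken to pair these groups and no others, and libraries of unlike number were not compared. The main tests used no pairing. The replicate block joined same-numbered libraries in every comparison. Over all treatments it joined both regions within a treatment, and for the region differences the treatments within a region. Members, marker lists and pathway lists were chosen with earlier results of these data known. Named were all members, in treatment comparisons those with an unadjusted p under 0.05 plus Oprm1 in PVN HT against NC and EA against HT, in each pathway list up to 4 genes of smallest p among those called, and the 3 genes most like each member. Of the listed genes, Pcsk1n, Tac2 and Hba-a1 had no row of that name. Counting error was the sole error behind the value of 1 count.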

Additional observations from a re-analysis of the deposited data

How the results depend on the processing

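Across the alternatives that kept every library, 0 members were called in each treatment comparison and region difference. Between regions in NC the count was 5 with DESeq2, its size factors, no filter or all groups in 1 fit, 6 with the replicate block and 4 with the length contrast, where Oprd1 was lost, and over all treatments it was 7 or 8. The main fit in NC called 2120 genes higher in the CEA and 2294 in the PVN, of 16748. Of the same genes, the replicate block called 2331 and 2282, DESeq2 size factors 2193 and 2232, and the length contrast 703 and 809. All groups in 1 fit called 2920 and 3132 of 17768 genes. DESeq2 called 2503 and 2361 of 24553 genes, and no filter 2152 and 2160. The replicate block changed no call other than Pdyn in NC and Oprm1 over all treatments (edgeR adjusted p = 0.0519), and in the latter the numbers pair only the NC groups of both regions and, within the CEA, NC with HT. Leaving out 1 library gave 0 to 4 called members in PVN HT against NC, 0 to 4 in PVN EA against NC and 0 to 1 in the region difference of the HT effect, each time through PVN NC replicate 2, and 4 to 6 and 7 to 8 in the region comparisons. Over all members and comparisons 94 of 1576 values turned sign, 0 of them with a call before or after. Among the values covered by the naming rule 4 did. With the length contrast as a covariate the log2 change of Penk in PVN HT against NC was 0.011 and that of Oprm1 between regions in NC was -0.58, and Oprm1 in PVN EA against HT ran from -0.39 without HT replicate 3 to 0.20 without HT replicate 1, with 0.10 without EA replicate 1. The cause was not tested. Of the other fold changes under these alternatives, 499 kept their direction and side of the threshold, 22 lost and 7 gained a call. The counts of members with an unadjusted p under 0.05 were less stable, and 51 moved by more than 1.5 times or to or from 0, while 146 did not. With 3 libraries a group, the SE of a log2 change in a treatment comparison reached 0.71 for Oprm1, which limits what could be seen for that gene.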
